A study of Mus musculus with 12 samples.

Results

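The gluconeogenic enzymes and regulators described here are 10 of the 55414 genes in the count table of this liver RNAseq series. They are Pcx, Pck1, Fbp1, G6pc1, Slc37a4, Tat, Sds, Gpt2, Ppargc1a and Foxo1, chosen by name and found by matching the Ensembl identifier of each row to its GENCODE symbol. These genes and the gene lists below were chosen with earlier results of these data known. The shares over all tested genes given beside their counts do not allow for that choice. All 10 genes were found, and all 10 passed the filter on low counts. Gluconeogenesis is the pathway by which the liver makes glucose from lactate, glycerol and amino acids during fasting. Its committed steps bypass the irreversible steps of glycolysis, and glucagon, insulin and glucocorticoids (GCs) set the transcription of several of its genes. GCs act through the glucocorticoid receptor (GR), a nuclear receptor that binds DNA, and Tat is among the liver genes long used to read its activity.

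Livers came from 12 female C57BL/6J mice of 8 to 12 weeks, in 4 groups of 3. Mice received 0.9% NaCl or 300 mg/kg FeSO4 i.p., and 6 h later PBS or 10 mg/kg dexamethasone (DEX, a synthetic GC) i.p., which gave the groups NaCl/PBS, NaCl/DEX, FeSO4/PBS and FeSO4/DEX. Every liver was taken 2 h after the second injection, 8 h after the first. The comparisons ask how acute iron overload changes the liver transcriptome, how DEX does so, and whether the DEX response differs in iron-loaded mice. All mice carried the same wild-type background and no transgene, and FeSO4 at this dose causes lethal shock, so that the model is an acute and severe one.

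Between 16335651 and 23827340 reads per mouse were counted on genes. Values are given as normalized counts, which are read counts scaled with edgeR's TMM factors to a common library size. Changes are log2 fold changes (LFCs), tested with edgeR's quasi-likelihood test over 13857 genes in 1 model of the 12 libraries, and a gene was called higher or lower at a Benjamini-Hochberg adjusted p (FDR) of 0.05 or less. All 7 hepatocyte markers looked at were expressed in every group, with a summed level of 94770 to 113069 counts scaled for library size (CPM) in NaCl/PBS mice and 118965 to 135425 CPM in FeSO4/PBS mice. Neutrophil markers lay at 2.86 to 9.58 CPM in NaCl/PBS and 36.8 to 45.4 CPM in FeSO4/PBS mice, and those of Kupffer cells at 394.6 to 461 and 205 to 244 CPM, and their part in the results was not tested. In bulk liver, fewer cells of a type and less RNA per cell cannot be told apart. FeSO4/PBS mouse 1 differed from mice 2 and 3 by a chi-square per gene of 89.5 and 71.4, against 23.98 between mice 2 and 3. Results that turn on it are given with and without this mouse. LFCs are relative to the TMM scaling, under which the median LFC of all genes after FeSO4 was -0.02. With libraries scaled by their size alone it was -0.34.

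In NaCl/PBS mice, the 10 genes spanned a wide range of levels. Per length of exon, Pck1 was the most abundant, with 632.9 ± 34.4 RPKM (reads per kb of exon, scaled for library size, SD, n = 3). Pck1 encodes the cytosolic phosphoenolpyruvate carboxykinase, which turns oxaloacetate into phosphoenolpyruvate. Tat followed with 415 ± 54.3 and Fbp1 with 391 ± 4.85 (SD, n = 3), and the mice of this pair overlapped. Sds was at 116 ± 38.0, Pcx at 73.7 ± 4.87 and G6pc1 at 56.2 ± 31.6 RPKM (SD, n = 3). Neither Pcx and G6pc1 nor G6pc1 and Gpt2, at 44.2 ± 1.59 (SD, n = 3), were separated by their mice. Slc37a4 was at 34.9 ± 4.50 (SD, n = 3). The regulators were far lower, Foxo1 at 3.53 ± 0.285 and Ppargc1a at 1.89 ± 0.316 RPKM (SD, n = 3). In the other 3 groups Tat stood first, with 1947 ± 185 RPKM after DEX, 2312 ± 415 after FeSO4 and 2367 ± 560.5 after both (SD, n = 3). Pck1 was second in NaCl/DEX mice and came after Tat, Fbp1 and Sds in both FeSO4 groups, where its mice overlapped with those of G6pc1 in this measure.

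After acute iron overload, called genes among the 10 went in both directions, as did those among all tested genes. In FeSO4/PBS against NaCl/PBS mice, 4 of the 10 were higher (Tat, Sds, Gpt2 and Foxo1), where 27.2% of all tested genes were higher, and 1 was lower (Pck1), where 27.3% of all tested genes were lower. The median LFC of the 10 genes was 0.68, against -0.02 for all tested genes. The 3 genes that feed amino acid carbon into the pathway all rose, Pck1 fell more than any other of the 10 genes, and the remaining 5 (Pcx, Fbp1, G6pc1, Slc37a4 and Ppargc1a) did not pass the test. In 6 of the 10 genes the mice of both groups did not overlap, as in 60.0% of all tested genes.

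Pck1 (ENSMUSG00000027513) lies on chromosome 2 from 172994744 to 173001066 (mm39). The NaCl/PBS mice had 43527, 48206 and 47515 normalized counts, the FeSO4/PBS mice 3377, 14811 and 6516. Every FeSO4/PBS mouse lay below every NaCl/PBS mouse, but mouse 2 kept a level 4.39 times that of mouse 1. The LFC was -2.49 (SE 0.41, edgeR FDR 0.000158), a level 5.64-fold lower, and -2.12 (edgeR FDR 0.000123) without FeSO4/PBS mouse 1. The promoter of Pck1 is a textbook target of cAMP signalling, which glucagon raises. The 250 bases before its start (RefSeq, GRCm38.p6, chr2:173152823-173153072, plus strand) are shown because this gene carries the largest fall. The capitals mark the 5-base core of a cAMP response element, TGACG, here on the minus strand and 90 to 86 bases before the start:

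Pck1: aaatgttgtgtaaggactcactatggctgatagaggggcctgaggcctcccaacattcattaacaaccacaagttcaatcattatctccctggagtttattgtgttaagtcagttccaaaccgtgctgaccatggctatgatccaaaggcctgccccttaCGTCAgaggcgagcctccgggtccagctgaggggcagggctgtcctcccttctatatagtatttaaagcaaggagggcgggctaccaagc

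Pcx (ENSMUSG00000024892, chromosome 19 from 4559902 to 4672189, mm39) encodes pyruvate carboxylase, the mitochondrial enzyme that makes oxaloacetate for Pck1. Its level was 8449, 9635 and 9223 normalized counts in NaCl/PBS mice and 9930.4, 9779 and 9945 in FeSO4/PBS mice. The FeSO4/PBS mice sat close together and just above the highest NaCl/PBS mouse, and the LFC of 0.12 did not pass the test (95% interval -0.12 to 0.36, edgeR FDR 0.392). Its sign turned, to -0.20, under scaling by library size alone.

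Of the amino acid enzymes, Tat (ENSMUSG00000001670, chromosome 8 from 110717063 to 110726435, mm39), tyrosine aminotransferase, had the largest rise. Normalized counts were 17656, 19125 and 22702 in NaCl/PBS mice and 119068, 124474 and 87754 in FeSO4/PBS mice. The groups were far apart, with an LFC of 2.48 (SE 0.19, edgeR FDR 2.51e-07), or 5.57-fold. Sds (ENSMUSG00000029597, chromosome 5 from 120614585 to 120621997, mm39) encodes serine dehydratase, which makes pyruvate from serine. It had 3421, 3522 and 5895 normalized counts in NaCl/PBS mice and 19358, 13615 and 10748 in FeSO4/PBS mice. Sds was thus higher in all 3 FeSO4/PBS mice (LFC 1.77, SE 0.29, edgeR FDR 0.000161). Gpt2 (ENSMUSG00000031700, chromosome 8 from 86218810 to 86255577, mm39), the mitochondrial alanine aminotransferase, rose less. Its NaCl/PBS mice had 8029, 8551 and 8055 and its FeSO4/PBS mice 15634, 13381 and 12036 normalized counts, which did not overlap. The LFC was 0.74 (SE 0.14, edgeR FDR 0.000416). Without FeSO4/PBS mouse 1, all 3 rises kept their call, with LFCs of 2.42 for Tat, 1.51 for Sds and 0.63 for Gpt2.

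Among the late steps, Fbp1 (ENSMUSG00000069805, chromosome 13 from 63012567 to 63036263, mm39), fructose bisphosphatase, did not pass the test. It had 18064, 18116 and 18479 normalized counts in NaCl/PBS mice and 21477, 18461 and 15763 in FeSO4/PBS mice, so that the FeSO4/PBS mice lay on both sides of the NaCl/PBS mice. The LFC was 0.03, with a 95% interval of -0.24 to 0.29 (edgeR FDR 0.868). G6pc1 (ENSMUSG00000078650, chromosome 11 from 101258369 to 101268729, mm39) encodes the catalytic subunit of glucose phosphatase, which releases free glucose. Its NaCl/PBS mice differed 3.84-fold among themselves, at 1057, 2998 and 4062 normalized counts, and the FeSO4/PBS mice had 6529, 3371 and 3993. The groups overlapped, and an LFC of 0.78 (95% interval -0.14 to 1.69, edgeR FDR 0.139) was not called. Without NaCl/PBS mouse 3 it was 1.19 (edgeR FDR 0.0482), without NaCl/PBS mouse 1 it was 0.39 (edgeR FDR 0.402), and without FeSO4/PBS mouse 1 it was 0.45 (edgeR FDR 0.419). The 250 bases before its start (RefSeq, GRCm38.p6, chr11:101367466-101367715, plus strand) are shown as the other end of the pathway, with a TATA box in capitals at 29 to 24 bases before the start:

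G6pc1: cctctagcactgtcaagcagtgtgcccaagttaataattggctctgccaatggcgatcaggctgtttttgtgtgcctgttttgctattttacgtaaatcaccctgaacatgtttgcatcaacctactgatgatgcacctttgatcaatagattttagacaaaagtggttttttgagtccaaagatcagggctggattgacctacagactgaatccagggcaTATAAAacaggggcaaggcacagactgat

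Slc37a4 (ENSMUSG00000032114, chromosome 9 from 44308144 to 44314265, mm39) encodes the transporter that carries glucose phosphate to that phosphatase. It had 2933, 3634 and 2921 normalized counts in NaCl/PBS mice and 5659, 3034 and 3799 in FeSO4/PBS mice. Mouse 2 of the FeSO4/PBS group lay within the NaCl/PBS range, and the LFC of 0.40 was not called (95% interval -0.04 to 0.83, edgeR FDR 0.113). Without that mouse it was 0.58 (edgeR FDR 0.0225), and without FeSO4/PBS mouse 1 it was 0.12 (edgeR FDR 0.582), the ends of the range with 1 mouse left out.

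Of the regulators, Foxo1 (ENSMUSG00000044167, chromosome 3 from 52175757 to 52260642, mm39), a forkhead factor that insulin signalling keeps out of the nucleus, rose. It had 599, 703 and 642 normalized counts in NaCl/PBS mice and 1848, 2473 and 2605 in FeSO4/PBS mice. No mice overlapped, and the LFC was 1.83 (SE 0.14, edgeR FDR 1.60e-07). Ppargc1a (ENSMUSG00000029167, chromosome 5 from 51611592 to 51725068, mm39), a transcriptional coactivator of fasting metabolism, had 264, 219.7 and 308 normalized counts in NaCl/PBS mice and 99.8, 704 and 419.6 in FeSO4/PBS mice. The FeSO4/PBS mice thus fell on both sides of the control mice, and the LFC of 0.63 was not called (95% interval -0.34 to 1.59, edgeR FDR 0.258). Without FeSO4/PBS mouse 1 it was 1.10 (edgeR FDR 0.00247), and without mouse 2 it was -0.04. With 1 mouse left out the adjusted p ran from 0.00247 to 0.943.

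**Figure D1:**
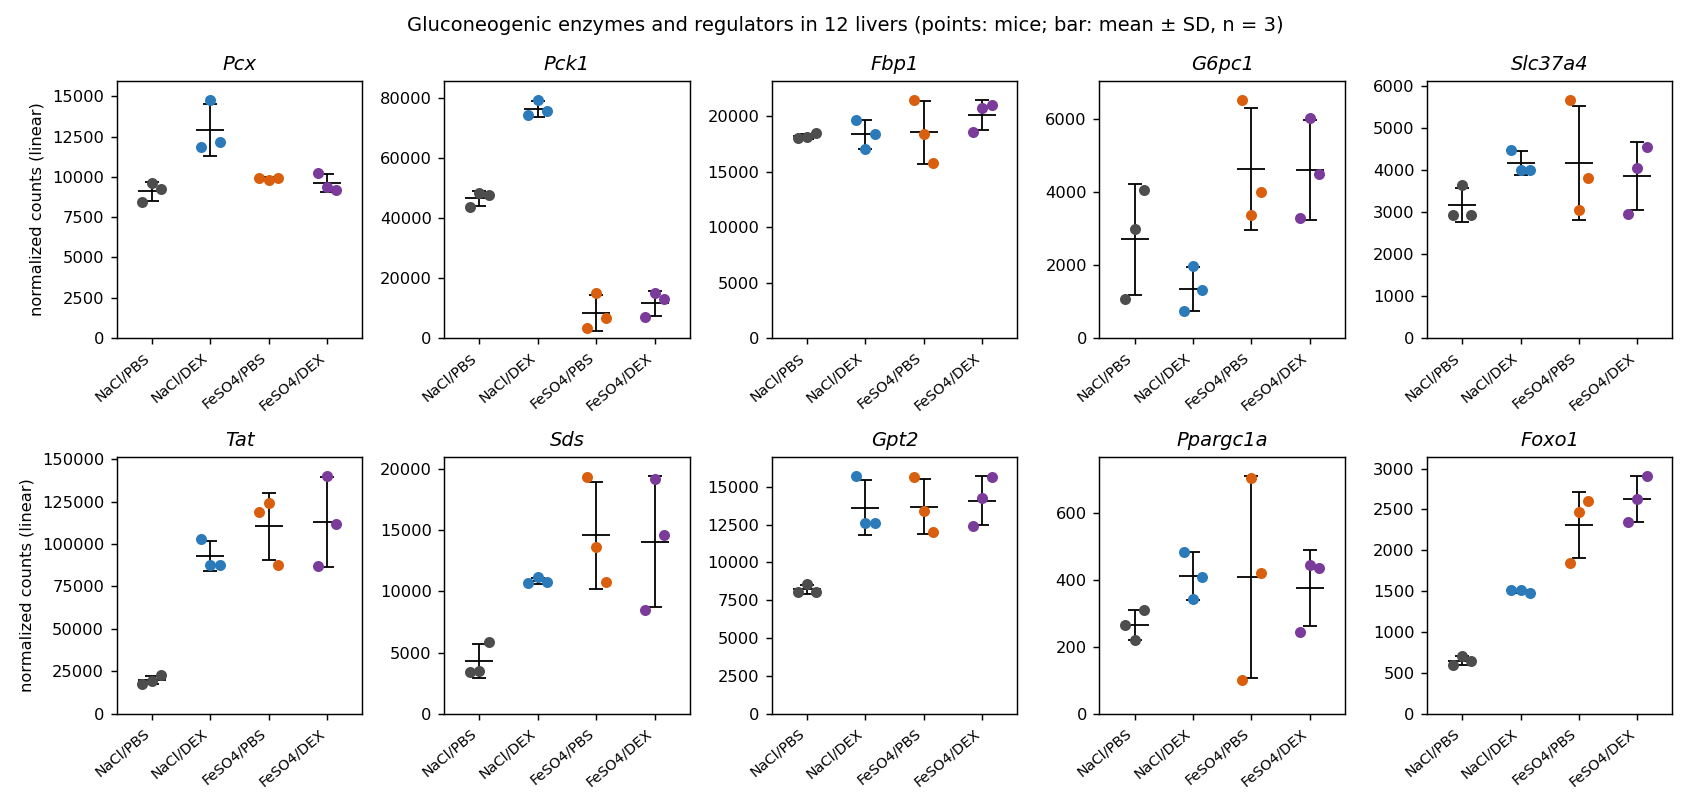
Normalized counts (linear axes from 0) of the 10 genes in each mouse of the 4 groups (points), with the group mean and SD (bars, n = 3). Pck1 is low in all 6 FeSO4 mice, Tat, Sds, Gpt2 and Foxo1 are lowest in the NaCl/PBS mice, and the FeSO4/PBS mice of Ppargc1a run from 99.8 to 704.

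Of the 10 genes, 5 were highest in FeSO4/PBS mouse 1 of its group (Fbp1, G6pc1, Slc37a4, Sds and Gpt2) and 3 were lowest (Pck1, Ppargc1a and Foxo1). Of all tested genes, 39.0% were highest and 39.1% lowest in this mouse. On the log2 scale, the SD between the FeSO4/PBS mice was 1.45 for Ppargc1a and 1.07 for Pck1, against a median of 0.27 over all tested genes. These values stood at the 99.4th and 97.4th percentile of all tested genes. The pyruvate dehydrogenase kinase Pdk4, which spares pyruvate for gluconeogenesis, was also low in this mouse. It had 515 normalized counts there and 14233 and 14043 in mice 2 and 3, against 81.3 to 149 in the NaCl/PBS mice. G6pc1 was the most variable of the 10 genes in NaCl/PBS mice, with an SD of 1.02 on the log2 scale (98.8th percentile), against a median of 0.16.

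DEX alone raised several of these genes within 2 h. In NaCl/DEX against NaCl/PBS mice, 5 of the 10 genes were higher (Pcx, Tat, Sds, Gpt2 and Foxo1), where 6.50% of all tested genes were higher. None of the 10 was lower by edgeR, where 7.15% of all tested genes were lower. At an unadjusted p under 0.05, 6 of the 10 and 3718 of the 13857 tested genes passed. The median LFC of the 10 genes was 0.68, against -0.02 for all tested genes. The mice of both groups did not overlap in 8 of the 10 genes and in 37.9% of all tested genes. The NaCl/PBS mice served here and in the FeSO4 comparison, so that both sets of LFCs share them.

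Tat had 103192, 87816 and 87952 normalized counts in the NaCl/DEX mice, all far above the 17656 to 22702 of the NaCl/PBS mice. This was a 4.69-fold rise (LFC 2.23, SE 0.19, edgeR FDR 5.35e-06). Because Tat had the largest DEX response of the 10 genes, the 250 bases before its start (RefSeq, GRCm38.p6, chr8:109990186-109990435, plus strand) are shown. None of the motifs searched was in this window, so that it holds no capitals:

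Tat: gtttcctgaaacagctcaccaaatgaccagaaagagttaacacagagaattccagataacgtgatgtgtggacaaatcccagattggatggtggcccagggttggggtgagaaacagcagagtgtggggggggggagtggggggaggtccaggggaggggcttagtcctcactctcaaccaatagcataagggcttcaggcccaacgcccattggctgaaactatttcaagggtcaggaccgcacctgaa

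Sds had 10678, 11175 and 10755 normalized counts in NaCl/DEX mice, a tight group above the NaCl/PBS mice. Its LFC was 1.34 (SE 0.28, edgeR FDR 0.00581). Gpt2 had 15706, 12589 and 12581, and an LFC of 0.73 (SE 0.14, edgeR FDR 0.00230). Foxo1 had 1512, 1509 and 1479, which agree within 1.02-fold, and an LFC of 1.21 (SE 0.13, edgeR FDR 4.22e-05). In each of these 3 genes, every NaCl/DEX mouse lay above every NaCl/PBS mouse. Pcx had 11821, 14764 and 12145 normalized counts in NaCl/DEX mice, also above all NaCl/PBS mice (LFC 0.50, SE 0.11, edgeR FDR 0.00830). Scaled by library size alone, Pcx lost the call (edgeR FDR 0.0587, over alternatives 3.63e-05 to 0.0587).

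Pck1 had 74106, 79165 and 75434 normalized counts in the NaCl/DEX mice, clearly above the 43527 to 48206 of the NaCl/PBS mice. Its LFC of 0.72 (95% interval -0.11 to 1.54) was nevertheless not called in the model of all 4 groups (edgeR FDR 0.261), in which the FeSO4 groups with their SDs of 1.07 and 0.59 share 1 spread estimate with the NaCl groups. With the 6 libraries of the comparison alone, the LFC was 0.73 and called (edgeR FDR 0.00131). Slc37a4 (0.41, edgeR FDR 0.0270) and Ppargc1a (0.65, edgeR FDR 0.0154) were called there as well, so that 8 genes in place of 5 were higher. The share of all tested genes called in that fit was not counted, so this gain cannot be set against it. In the model of all groups, Slc37a4 had an LFC of 0.40 (edgeR FDR 0.234) and Ppargc1a 0.63 (edgeR FDR 0.408). Slc37a4 had 4480.5, 3993 and 4005 and Ppargc1a 483, 341 and 407 normalized counts in NaCl/DEX mice, and neither overlapped with NaCl/PBS mice.

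G6pc1 was the only 1 of the 10 genes whose LFC after DEX was below 0 with TMM scaling (Fbp1 was so as well, at -0.14, under library size alone). It had 745, 1969 and 1321 normalized counts in NaCl/DEX mice, 2 of which lay within the range of the NaCl/PBS mice. The LFC was -1.01 (95% interval -1.93 to -0.08, edgeR FDR 0.148) and was not called. Without NaCl/PBS mouse 1, which had the lowest level of its group, it was -1.38 (edgeR FDR 0.0310), and the adjusted p ran from 0.0310 to 0.505 with 1 mouse left out. Fbp1, at 19665, 17088 and 18427, had an LFC of 0.01 (95% interval -0.25 to 0.28, edgeR FDR 0.962).

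In iron-loaded mice, no DEX effect on these genes was detected. In FeSO4/DEX against FeSO4/PBS mice, edgeR called 0 of the 10 genes higher and 0 lower, as it called 0% of all tested genes higher and 0% lower. At an unadjusted p under 0.05, 0 of the 10 genes and 900 of all 13857 tested genes passed, and DESeq2 called 0 of the 10 as well. The LFCs of the 10 genes lay between -0.13 and 0.48, with a median of 0.01, and their groups overlapped in every case. Tat had 86789, 140304 and 112099 normalized counts in FeSO4/DEX mice, around the 87754 to 124474 of the FeSO4/PBS mice. Its LFC was 0.03 with a 95% interval of -0.36 to 0.43, which leaves out the LFC of 2.23 seen in NaCl mice. Intervals for Gpt2 (-0.25 to 0.33), Foxo1 (-0.09 to 0.47), Pcx (-0.28 to 0.20) and Sds (-0.65 to 0.55) also ended below their LFC in NaCl mice. For Pck1, with 6867, 14789.6 and 12857 normalized counts in FeSO4/DEX mice, the interval of -0.34 to 1.31 held the LFC of 0.72. Its LFC in FeSO4 mice was 0.48, and 0.08 without FeSO4/PBS mouse 1. That mouse also moved Ppargc1a, from -0.13 to -0.62, Foxo1, from 0.19 to 0.03, and G6pc1, from -0.01 to 0.30, without a call in any of them.

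The difference of the DEX responses was tested directly as an interaction. Of the 10 genes, 3 responded less in FeSO4 than in NaCl mice (Tat, Gpt2 and Foxo1), where 3.20% of all tested genes had a lower response. None responded more by edgeR, where 2.99% of all tested genes did. At an unadjusted p under 0.05, 5 of the 10 and 2830 of the 13857 tested genes passed. Tat had the largest difference, -2.20 (SE 0.26, edgeR FDR 0.000248), followed by Foxo1 with -1.02 (SE 0.19, edgeR FDR 0.00520) and Gpt2 with -0.69 (SE 0.19, edgeR FDR 0.0476). The Gpt2 call was lost under library size alone (-0.56, edgeR FDR 0.0711) and with the replicate number as a block (-0.68, edgeR FDR 0.0836). It was kept without FeSO4/DEX mouse 3, FeSO4/PBS mouse 1 or FeSO4/PBS mouse 3, and lost when any other of the 12 mice was left out (edgeR FDR up to 0.116). Sds had a difference of -1.40 (edgeR FDR 0.0548) and Pcx of -0.55 (edgeR FDR 0.0606), both just above the threshold. DESeq2 called both, at adjusted p of 0.00610 and 0.00412. Over the alternatives with all mice, the adjusted p of edgeR or DESeq2 ran from 7.14e-10 to 0.0752 for Sds and from 0.00412 to 0.164 for Pcx. The lowest for Sds came from the edgeR fit without a filter on low counts, which called more of the 10 genes than the main fit. Sds was also called without FeSO4/DEX mouse 2 (-1.72), FeSO4/PBS mouse 3 (-1.59) or NaCl/PBS mouse 3 (-1.71). Ppargc1a had -0.76 (edgeR FDR 0.544), and -1.28 (edgeR FDR 0.0385) without FeSO4/PBS mouse 1. Pck1 had -0.23 (edgeR FDR 0.857), and -0.65 (edgeR FDR 0.398) without that mouse.

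For Tat, Sds and Foxo1, the mean of the FeSO4/PBS mice lay above that of the NaCl/DEX mice. The mice of both groups overlapped for Tat and Sds, and did not for Foxo1. FeSO4/PBS mouse 3 lay below all NaCl/DEX mice for Tat (87754) and within their range for Sds (10748). Mean normalized counts were 92987 ± 8839 in NaCl/DEX and 110432 ± 19825 in FeSO4/PBS mice for Tat (SD, n = 3). For Sds they were 10869 ± 267 and 14574 ± 4384, and for Foxo1 1500.2 ± 18.4 and 2309 ± 405 (SD, n = 3). For Gpt2 they were close, at 13625 ± 1802 and 13684 ± 1818 (SD, n = 3), with 13381 and 12036 in FeSO4/PBS mice 2 and 3. Pcx was different, since its FeSO4/PBS mice averaged 9885 ± 91.8 and its NaCl/DEX mice 12910.1 ± 1614 (SD, n = 3), and so was Pck1, with 8234 ± 5908 and 76235 ± 2623 (SD, n = 3). No test between these groups was made.

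With DEX given to both groups, partly other genes were called for the iron effect. Whether that effect differs with DEX is the same contrast as the difference of the DEX responses. In the main fit that contrast was called for Tat, Foxo1 and Gpt2. It was not called for G6pc1 (1.00, edgeR FDR 0.381), Pcx or Pck1. In FeSO4/DEX against NaCl/DEX mice, 2 genes were higher (G6pc1 and Foxo1), where 22.4% of all tested genes were higher, and 2 were lower (Pck1 and Pcx), where 20.9% of all tested genes were lower. The median LFC was 0.09, against 0.01 for all tested genes, and 4 of the 10 genes did not overlap between groups, against 55.9% of all tested genes. Pck1 fell again, from 74106 to 79165 normalized counts in NaCl/DEX mice to 6867 to 14789.6 in FeSO4/DEX mice (LFC -2.73, SE 0.41, edgeR FDR 0.000118). G6pc1 rose, with 3283, 6045 and 4504 normalized counts in FeSO4/DEX mice against 745 to 1969 in NaCl/DEX mice. Its LFC was 1.78 (SE 0.44, edgeR FDR 0.00476), and it stayed called whichever mouse was left out, between 1.48 and 2.15. Foxo1 had 2351, 2625 and 2913 in FeSO4/DEX mice, above all NaCl/DEX mice, and an LFC of 0.81 (SE 0.13, edgeR FDR 0.000226). Pcx, at 10252, 9363 and 9190.1, lay below all NaCl/DEX mice (LFC -0.43, SE 0.11, edgeR FDR 0.00729). Tat (0.28, edgeR FDR 0.230), Sds (0.37, edgeR FDR 0.303) and Gpt2 (0.05, edgeR FDR 0.798), which rose without DEX, did not pass the test here.

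**Figure D2:**
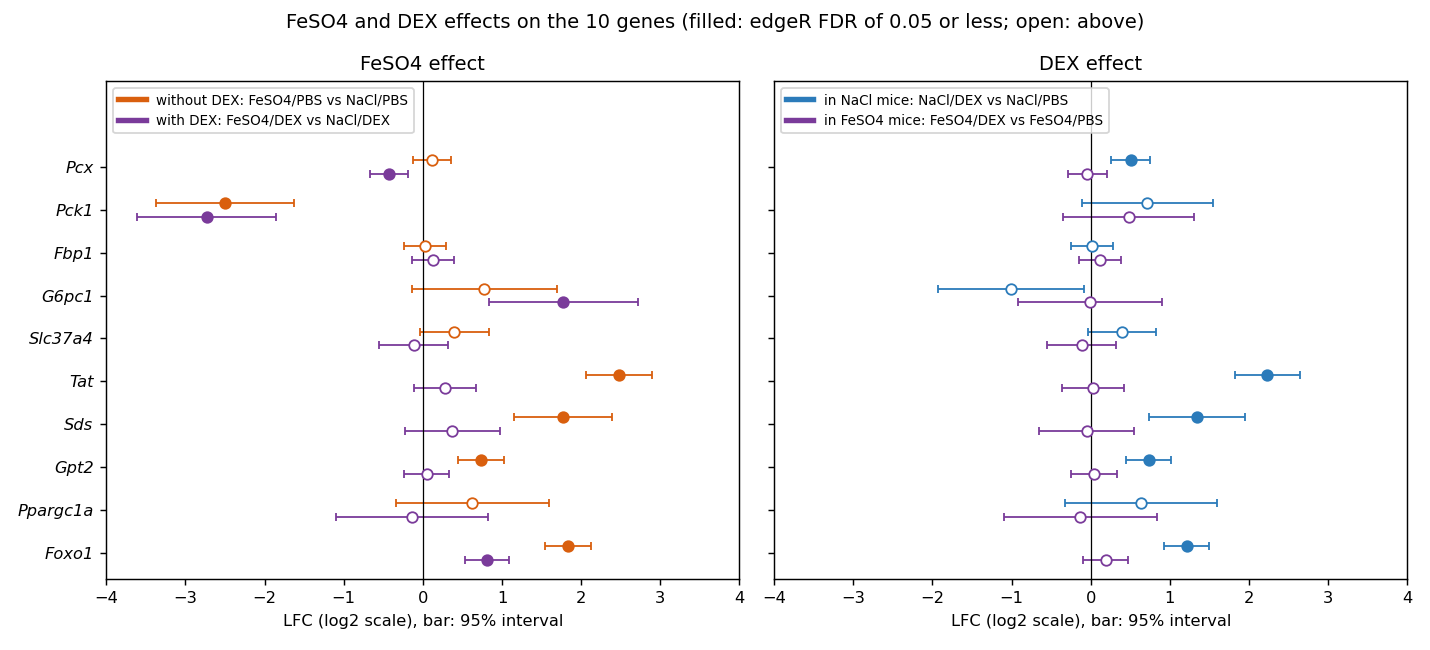
LFCs (log2 scale) of the 10 genes with 95% intervals, for the FeSO4 effect without and with DEX (left) and the DEX effect in NaCl and in FeSO4 mice (right), with filled points for an edgeR FDR of 0.05 or less. All DEX effects in FeSO4 mice lie between -0.13 and 0.48 and are open, while Pck1 lies at -2.49 and -2.73 in both FeSO4 comparisons.

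Pck1 and G6pc1, the genes for the first bypass from oxaloacetate and for the last step of the pathway, differed in opposite directions between FeSO4/DEX and NaCl/DEX mice. Their ratio within each library does not depend on the scaling between libraries. Per exon length, Pck1 was 27.0, 10.6 and 7.68 times as abundant as G6pc1 in NaCl/PBS mice, and 65.4, 26.4 and 37.5 times in NaCl/DEX mice. In FeSO4/PBS mice the ratio was 0.340, 2.89 and 1.07, and in FeSO4/DEX mice it was 1.37, 1.61 and 1.88. The highest ratio among the 6 FeSO4 mice was therefore below the lowest among the 6 NaCl mice. This ratio was chosen after the values of both genes had been seen and was not tested.

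**Figure D3:**
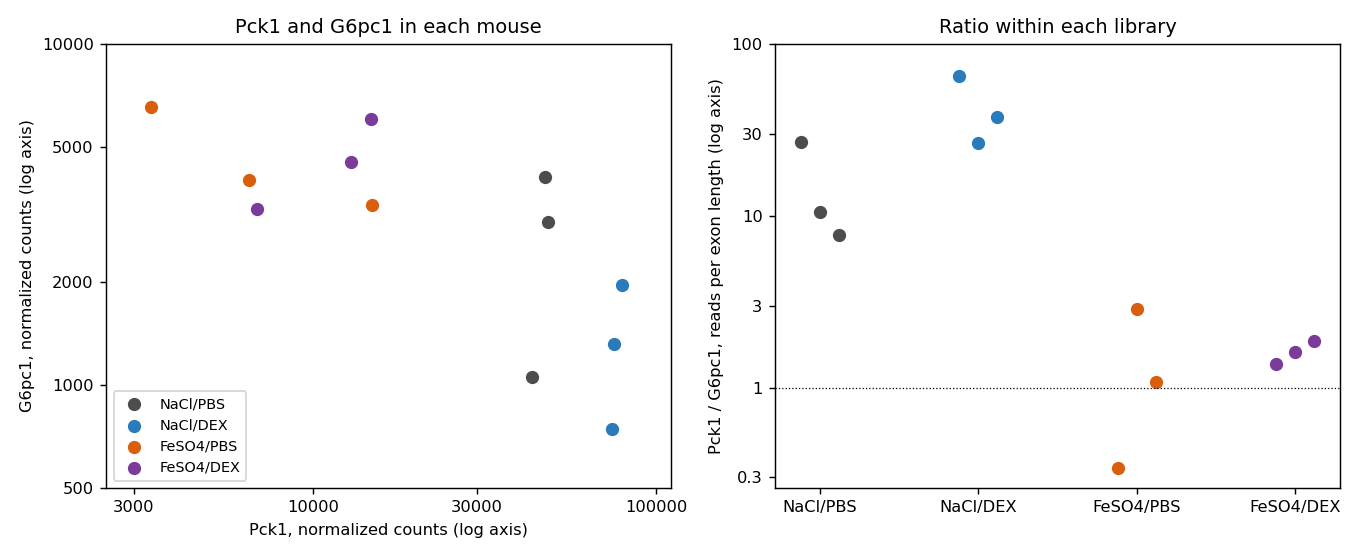
Left, normalized counts of Pck1 and G6pc1 in each of the 12 mice (log axes). Right, ratio of Pck1 to G6pc1 reads per exon length within each library (log axis, dotted line at 1), which runs from 7.68 to 65.4 in NaCl mice and from 0.340 to 2.89 in FeSO4 mice.

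All 9 reversible enzymes that gluconeogenesis shares with glycolysis were called higher after FeSO4 without DEX, where 27.2% of all tested genes were higher. Their median LFC was 0.75, against -0.02 for all tested genes. Eno1, an enolase, had 2497 to 2844 normalized counts in NaCl/PBS and 4487 to 8503 in FeSO4/PBS mice (LFC 1.14, SE 0.21, edgeR FDR 0.000381). Gapdh had an LFC of 1.12. The number of higher enzymes was 5 under scaling by library size alone and 6 without FeSO4/PBS mouse 1, with 0 lower in either case. After DEX in NaCl mice, edgeR called 0 of the 9 (2 at an unadjusted p under 0.05, and 1 by DESeq2), with a median LFC of 0.23. With DEX in both groups, 5 of the 9 were higher after FeSO4 (2 with library size alone), where 22.4% of all tested genes were higher.

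Of 17 genes for the entry of lactate, glycerol and amino acid carbon, iron without DEX left 5 higher and 1 lower. These shares were 27.2% and 27.3% over all tested genes, and the median LFC of the 17 genes was 0.13. Scaled by library size alone, 2 were higher and 4 lower. Slc16a1, a lactate and pyruvate transporter, had 587 to 675 normalized counts in NaCl/PBS and 3454 to 4847 in FeSO4/PBS mice. It rose by an LFC of 2.69 (SE 0.19, edgeR FDR 1.29e-07). Got1, the cytosolic aspartate aminotransferase, rose with an LFC of 2.29, and Tdo2, which opens the breakdown of tryptophan, with 0.59. Aqp9, a glycerol channel of hepatocytes, fell, with an LFC of -1.31. DEX in NaCl mice raised 2 of the 17 (against 6.50% of all tested genes), Got1 (1.34) and Tdo2 (1.24). Both had a lower DEX response in FeSO4 mice, by -1.31 for Got1 (edgeR FDR 0.0400) and -1.35 for Tdo2 (edgeR FDR 0.00683). With DEX in both groups, 2 were higher after FeSO4 (Slc16a1 2.49, Got1 0.98) and 3 lower, led by Tdo2 (-0.76) and Aqp9 (-0.70). In that comparison, 22.4% of all tested genes were higher and 20.9% lower.

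Of 11 paralogs of the 10 genes, 9 could be tested (not Fbp2 and G6pc2). Iron without DEX left 2 of them higher and 3 lower, against 27.2% and 27.3% of all tested genes. Sdsl, a paralog of Sds, had 126 to 156 normalized counts in NaCl/PBS, 292 to 346 in NaCl/DEX and 491 to 669 in FeSO4/PBS mice. It was higher after FeSO4 (LFC 2.04, SE 0.19, edgeR FDR 1.06e-06) and after DEX (LFC 1.25, SE 0.19, edgeR FDR 0.000430), and its DEX response was lower in FeSO4 mice (-1.61, edgeR FDR 0.00207). Foxo3, another forkhead factor, fell after FeSO4 (LFC -0.63) and rose after DEX in NaCl mice (LFC 1.06), while Foxo1 was higher in both comparisons. Foxo4 (-0.89) and Slc37a2 (-1.66) fell and Slc37a1 (2.28) rose after FeSO4. Pck2, the mitochondrial counterpart of Pck1, was low in all groups, with 57.1 to 129 normalized counts, and was not called in any comparison. With DEX in both groups, Slc37a1 was higher after FeSO4 (2.29) and 3 paralogs were lower, Foxo3 (-1.63), Slc37a2 (-1.22) and Foxo4 (-0.71). Of all tested genes, 22.4% were higher and 20.9% lower there.

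Hormone receptors and transcriptional regulators of gluconeogenesis moved in both directions after iron. Without DEX, 13 of 29 were higher and 12 lower, against 27.2% and 27.3% of all tested genes, with a median LFC of -0.13. With libraries scaled by their size alone, 11 were higher and 15 lower. Among the higher genes were Pdk4 (6.47, SE 0.92, edgeR FDR 5.16e-05) and Nr4a1, an orphan nuclear receptor (3.24). The largest falls were those of Nr0b2, a corepressor that bile acids induce (-2.21), Irs1, an insulin receptor substrate (-1.63), and Foxa2, a forkhead factor of fasting (-1.19). Nr3c1, which encodes the GR, was among the 12 lower genes (-0.89, SE 0.15, edgeR FDR 0.000184), and is named because it mediates the DEX response, after its value had been seen. DEX in NaCl mice changed 7 of the 29 (11 with library size alone, 2 higher and 9 lower). In the main fit 3 were higher, among them Cebpb (1.29) and Hnf4a (0.37), and 4 lower, led by Irs2 (-1.60), Irs1 (-1.20) and Cebpa (-0.54). Over all tested genes, 6.50% were higher and 7.15% lower after DEX.

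Irs2, the other insulin receptor substrate of the liver, changed in opposite directions after DEX and after FeSO4. It had 402 to 745 normalized counts in NaCl/PBS, 117 to 279 in NaCl/DEX, 702 to 1964 in FeSO4/PBS and 2072 to 4374 in FeSO4/DEX mice. It fell after DEX in NaCl mice and rose after FeSO4 (1.26, edgeR FDR 0.0138), and was far higher in FeSO4/DEX than in NaCl/DEX mice (4.05, SE 0.44, edgeR FDR 6.56e-06). The difference of its DEX responses was 2.79 (SE 0.56, edgeR FDR 0.00905). Of the 29 genes, 5 had a higher DEX response in FeSO4 mice, led by Irs2, Irs1 (1.94) and Cebpa (0.66). A lower one was found for 2 (4 without FeSO4/PBS mouse 1), among them Cebpb (-1.10). Over all tested genes, 2.99% had a higher and 3.20% a lower response. With DEX in both groups, 14 of the 29 were higher after FeSO4 (against 22.4% of all tested genes), led by Pdk4 (4.84), Irs2 and Nr4a1 (3.93). Another 6 were lower (against 20.9% of all tested genes), led by Foxa2 (-1.72), Ppara (-1.32) and Klf15 (-1.19). Scaled by library size alone, these counts were 10 and 11.

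Of 10 genes of glycolysis, pyruvate oxidation and glycogen metabolism, iron without DEX left 2 higher (Pfkfb3 2.59 and Gckr 0.75). Another 3 were lower (Pfkfb1 -1.43, Pdk2 -0.63 and Pfkl -0.38). Over all tested genes, 27.2% were higher and 27.3% lower. Pfkfb1 and Pfkfb3 encode bifunctional enzymes that set the level of a regulatory fructose bisphosphate, not the one that Fbp1 acts on. Pfkfb1 is the liver form. Pdk2, like Pdk4, encodes a kinase that inhibits pyruvate dehydrogenase, and Gckr encodes an inhibitory protein, so that the members of this list differ in the direction of their action. After DEX in NaCl mice 2 were higher (against 6.50% of all tested genes), among them Pfkfb3 (2.12). Pfkfb3 had a lower DEX response in FeSO4 mice (-2.33, edgeR FDR 0.000347). With DEX in both groups, Gckr (0.72) and Gys2 (0.36) were higher and 5 were lower, led by Pfkfb1 (-1.25) and Hk2 (-1.05), or 1 and 6 with library size alone. Here 22.4% of all tested genes were higher and 20.9% lower.

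**Figure D4:**
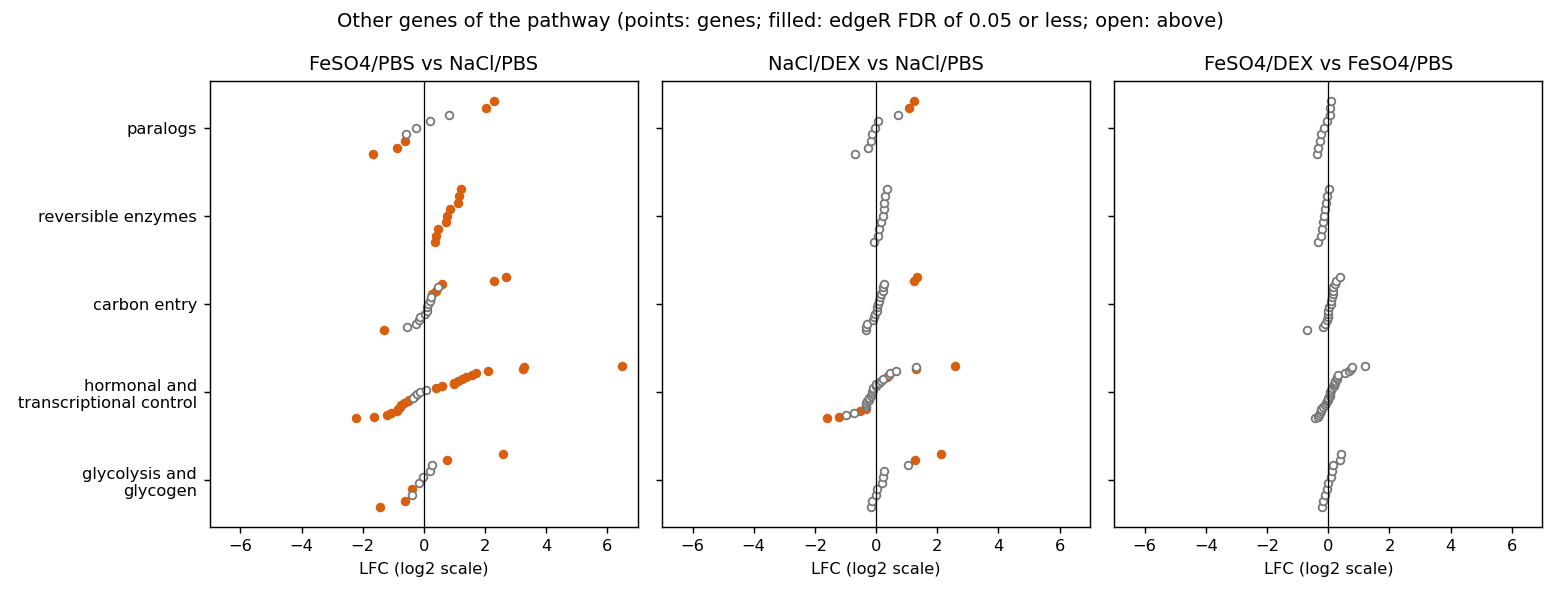
LFCs (log2 scale) of the other genes of the pathway in 5 lists (points, filled for an edgeR FDR of 0.05 or less) for the FeSO4 effect without DEX and the DEX effects in NaCl and in FeSO4 mice. All 9 reversible enzymes lie above 0 in the first comparison, and no gene is filled in the last.

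After DEX in FeSO4 mice, edgeR and DESeq2 called 0 genes of each of these 5 lists. At an unadjusted p under 0.05, 6 of the 29 receptors and regulators passed and 0 of the other 4 lists. Of 6 known GR target genes, used to check that DEX had acted, 5 were higher after DEX in NaCl mice, against 6.50% of all tested genes. The largest LFCs were those of Ddit4 (4.93), Fkbp5 (2.24) and Sgk1 (2.19). For 4 of the 6 the DEX response was lower in FeSO4 mice, against 3.20% of all tested genes. After DEX in FeSO4 mice, edgeR called 0 of the 6 (1 at an unadjusted p under 0.05, and 1 by DESeq2). Ddit4 had 875, 1138 and 708 normalized counts in FeSO4/PBS and 1612, 3196 and 2278 in FeSO4/DEX mice. These groups did not overlap, as in 9.3% of all tested genes, and Ddit4 is named here after its values had been seen. Iron alone raised 5 of the 6 (against 27.2% of all tested genes), led by Ddit4 (3.19), Sgk1 (1.25) and Per1 (1.20), while Tsc22d3 fell (-1.86). With library size alone, 3 were higher and 1 lower. Tsc22d3 had 995 to 1699 normalized counts in NaCl/PBS mice and 330.3 to 371 in FeSO4/PBS mice. Tat and Tsc22d3 thus had opposite changes after iron and both rose after DEX in NaCl mice. With DEX in both groups, 1 of the 6 was higher, Per1 (1.14), and 2 were lower, Tsc22d3 (-3.30) and Fkbp5 (-1.54), or 4 with library size alone. The shares over all tested genes were 22.4% higher and 20.9% lower.

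Gluconeogenesis is strongest in hepatocytes near the portal tract. After iron without DEX, 27.2% of all tested genes were higher and 27.3% lower. Of 8 periportal markers, 5 were higher and 0 lower (1 and 1 with libraries scaled by their size alone). Their summed level was 7809 to 9982 CPM in NaCl/PBS and 10817 to 13484 CPM in FeSO4/PBS mice. Of 8 pericentral markers, 2 were higher and 2 lower (0 and 3 with library size alone). Their sum was 7438 to 8104 CPM in NaCl/PBS and 6537 to 7437 CPM in FeSO4/PBS mice. Whether these shifts have a part in the values of the 10 genes was not tested.

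RefSeq windows of 250 bases before the start were at hand for 9 of the 10 genes (12 windows), and each was searched for 6 motifs. Both strands were searched, except for the TATA box, which was searched on the strand of the gene only. The core TGACG was found in 4 of the 12 windows, of 3 genes (Pck1, Slc37a4 and Ppargc1a), and in 17.8% of 32851 windows of that length. The TATA box TATAAA was found in 2 of the 12 (G6pc1 and Slc37a4) and in 7.59% of all windows. The full cAMP response element TGACGTCA, of which TGACG is a part, was in none of the 12 windows and in 1.55% of all, the glucocorticoid receptor hexamer AGAACA in none and in 16.1% of all, and the forkhead element TGTTTAC in none and in 3.17% of all. The palindromic glucocorticoid response element was in none of the 12 and in 3 of all windows. In the Pck1 sequence printed above, TGACG is the only motif of these that was found, and in that of G6pc1 the TATA box is. These letters are a description of short windows and say nothing about distant elements.

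For each of the 10 genes, the 3 genes with the most similar pattern were found by the root-mean-square difference of centred log2 CPM over the 12 libraries, among 8981 candidates. Sdsl was among the 3 nearest to Sds, at a difference of 0.32 where Sds itself varied by 0.80, and Ppargc1b among the 3 nearest to Ppargc1a, at 0.32 where Ppargc1a varied by 0.68. Bcl2l1, Insc and Insig2 were nearest to Tat (0.25 to 0.30 where Tat varied by 1.06). Of the 10 genes themselves, Sds was nearest to Tat, at 0.40. N4bp2l1, Lipg and Hsd3b2 were nearest to Pck1 (0.42 to 0.49 where Pck1 varied by 1.52), and Chic2, Nfkbia and Pik3ap1 to Foxo1 (0.13 to 0.19 where Foxo1 varied by 0.80). Nearest to G6pc1 were Prkab1, Mfsd3 and Chlsn, at 0.51 to 0.52 where G6pc1 varied by 0.95. For Gpt2 they included Atl2 and Srsf4, and the 3 were, for Pcx B4galnt1, Abhd13 and Atg16l1, for Slc37a4 Endog, Klhdc4 and Idh3g, and for Fbp1 Apof, Prelid1 and Tapbp. Arhgef37 and Cobll1 came before Ppargc1b for Ppargc1a, and Osbpl11 and Lrrc8a before Sdsl for Sds. The points share group, depth and scaling, so these differences are a description.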

How the data were processed

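The authors prepared stranded mRNA libraries, sequenced single-end reads of 100 cycles, mapped them to mm39 with STAR 2.7.10b and deposited whole-number counts per gene, without normalization. The strand setting of the counts was not given in the sources used here, and 4 of the 10 genes (Pcx, Slc37a4, Sds and Foxo1) share exon positions with genes on the opposite strand. Symbols and positions came from GENCODE vM39 for 54749 of 55414 genes. Promoter windows are RefSeq, GRCm38.p6, and are not on the build of the counts. Sds had no window in that table.

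All 12 libraries entered 1 edgeR 4.0.16 quasi-likelihood model (R 4.3.3) of the 4 group means, with TMM factors, on the 13857 genes that edgeR's low-count filter left. LFCs used a prior count of 0.125. Normalized counts were counts divided by each library's effective size and multiplied by the mean of these sizes. RPKM and CPM values used the same sizes. SEs were taken from the F statistic and intervals cover 95%. Alternatives were DESeq2 1.42.0, its size factors in edgeR, the replicate number as a block, scaling by library size, an unfiltered table, a minimum of 10 counts per library, the libraries of a comparison alone, an LFC beyond 1, and each mouse left out. Tables and figures were made with Python 3.11.15, numpy 2.4.6, pandas 2.3.3 and matplotlib 3.10.9. The model was also run on counts simulated from the NaCl/PBS means, with a known change planted in the NaCl/DEX group only. Those counts held no FeSO4 effect and no outlying mouse, so the run does not bear on results that turn on these.

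The labels call the samples replicates of a group, so p-values measure the spread between mice, and 3 mice a group, more than the depth, limit the precision. The 10 genes and all gene lists were chosen with earlier results of these data known. All 10 genes are described, and from each list at most 3 called genes per direction and comparison were named, by the size of their LFC. Exceptions are stated, and genes were named for their values in single mice (Pdk4), all groups (Pck2) or both comparisons (Foxo3) after these had been seen. A few genes of these lists are not reported here.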

Additional observations from a re-analysis of the deposited data

Results flagged for a closer look

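For 3 of the 10 genes the DEX response differed between FeSO4 and NaCl mice by a test of the difference itself. The DEX response of Tat was lower in FeSO4 mice by a difference of -2.20 on the log2 scale (edgeR FDR 0.000248), with an LFC of 2.23 in NaCl and 0.03 in FeSO4 mice. For Foxo1 the difference was -1.02 (edgeR FDR 0.00520), between LFCs of 1.21 and 0.19, and for Gpt2 it was -0.69 (edgeR FDR 0.0476), between 0.73 and 0.04. In all 3 genes every NaCl/DEX mouse lay above every NaCl/PBS mouse, and the FeSO4/DEX and FeSO4/PBS mice overlapped. With 1 mouse left out, the difference ran from -2.42 to -2.04 for Tat and from -1.20 to -0.94 for Foxo1, always called, and from -0.80 to -0.58 for Gpt2, called in 3 of 12 fits.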

How the results depend on the processing

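Of 50 results, 10 genes in 5 comparisons, 17 were called. Over all alternatives these 17 gave 320 values, of which 308 kept their direction and their side of the threshold, 12 lost the call and 0 reversed. Without a filter on low counts, 7 genes rather than 4 were higher after FeSO4, 8 rather than 5 higher and 1 rather than 0 lower after DEX in NaCl mice, and 1 rather than 0 higher and 5 rather than 3 lower in the difference of the DEX responses. DESeq2 and its size factors in edgeR each gave 5 lower genes in that difference. With library size alone, 2 rather than 1 genes were lower after FeSO4, the second being Fbp1, and the median LFC of all genes moved from -0.02 to -0.34 there, from -0.02 to -0.18 after DEX in NaCl mice, from 0.01 to -0.18 for FeSO4 with DEX and from 0.02 to 0.15 in the difference. With the libraries of the comparison alone, 8 genes were higher after DEX in NaCl mice. A minimum LFC of 1 left 3 higher after DEX in NaCl mice, 1 higher and 1 lower for FeSO4 with DEX, 3 rather than 4 higher after FeSO4 and 2 rather than 3 lower in the difference. With 1 mouse left out, 0 to 1 genes were lower after DEX in NaCl mice, 1 without NaCl/PBS mouse 1. Apart from the effect of the alternatives' own construction, the cause of these moves was not tested. The shares of all tested genes called in the alternative fits were not counted, so the moves cannot be read as particular to the 10 genes.

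Of the 33 uncalled results, 16 changed sign. With library size alone this held after FeSO4 for Pcx (-0.20) and Fbp1 (-0.30), after DEX in NaCl mice for Fbp1 (-0.14), after DEX in FeSO4 mice for Tat (-0.0021) and for FeSO4 with DEX for Fbp1 (-0.066) and Gpt2 (-0.15). With 1 mouse left out, LFCs ran after FeSO4 from -0.086 to 0.14 for Fbp1 and from -0.041 to 1.10 for Ppargc1a, and after DEX in NaCl mice from -0.035 to 0.066 for Fbp1. After DEX in FeSO4 mice they ran from -0.27 to 0.30 for G6pc1, -0.30 to 0.15 for Slc37a4, -0.17 to 0.19 for Tat, -0.36 to 0.21 for Sds, -0.051 to 0.13 for Gpt2 and -0.62 to 0.54 for Ppargc1a. For FeSO4 with DEX they ran from -0.28 to 0.043 for Slc37a4, -0.062 to 0.16 for Gpt2 and -0.31 to 0.10 for Ppargc1a, and in the difference of the DEX responses from -0.65 to 0.50 for Pck1 and -0.017 to 0.18 for Fbp1.

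With the replicate block, 2 rather than 3 genes were lower in the difference of the DEX responses, Gpt2 being lost at -0.68 (edgeR FDR 0.0836), and no other call on the 10 genes changed. The labels do not say whether the numbers pair the mice. Over all groups, correlations of same-numbered mice ran from -0.092 to 0.129, and a library correlated best with its own number in 10 of 36 cases. Between NaCl/DEX and NaCl/PBS mice, same-numbered mice had correlations of 0.129, 0.109 and 0.052, and other pairs had -0.151 to 0.030. Whether the mice of these groups were paired is thus not settled.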
